A study of Mus musculus with 6 samples.

Results

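Both lines compared here were V6.5 mouse embryonic stem cells, each carrying a doxycycline-inducible short hairpin RNA against Pcgf6, and the comparison asked how the hairpin 1 line and the hairpin 2 line differed whether or not the hairpin was switched on. Its members were 4 of the 6 arrays in the study, taken by their treatment labels, shRNA1 and shRNA2 each with and without dox. The other 2 arrays came from a V6.5 line with a scrambled hairpin, with and without dox, and are given beside the hairpin lines as a reference. Dox was used at 1 µg/ml in the treated cultures and was absent from the others. V6.5 is a hybrid 129 and C57BL/6 stem cell line that is known as male, although the labels give no sex and several Y-linked genes were dim here, as described below. All cultures were grown on mitotically inactivated DR4 mouse embryo fibroblasts in medium with serum and leukemia inhibitory factor, so each RNA sample could hold RNA of feeder cells as well as of stem cells. The labels name no clone, passage or separate culture for the lines.

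Pcgf6 is the Polycomb group RING finger protein that defines the variant repressive complex PRC1.6, in which Mga, Max, L3mbtl2 and E2f6 bring histone-modifying subunits to promoters of germ cell and other genes. Paired hairpins against 1 target are used so that effects of the knock-down can be told from effects of a single hairpin or line. Embryonic stem cells that were selected and expanded apart can also differ in chromosomes, in differentiated cells and in the feeder cells that are harvested with them, and such differences need not depend on the inducer.

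Expression was measured on GeneChip Mouse Gene 1.0 ST arrays, on which a probe set sums the probes of a transcript or exon region, and values are log2 signal intensities, so that a difference of 1 is a change of 2-fold. Of 35556 probe sets, 21789 named a single gene, and these gave 19938 genes after keeping the brightest probe set of each. Array medians lay between 7.02 and 7.08, and any pair of arrays correlated at 0.991 to 0.996 over all probe sets. There was 1 array per line and dox state. The line difference is the mean of hairpin 1 minus hairpin 2 over both dox states, fitted with limma on the 4 arrays with dox as a second term, and each p was adjusted for the 19938 genes tested (Benjamini-Hochberg). The 2 arrays of a line are not independent replicates of that line. The p-values set the size of a difference against its unevenness between the dox states, drawn mostly toward a spread pooled over all genes. They do not measure the spread between separate cultures of a line.

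The targeted gene was at a similar level in both lines. The Pcgf6 level was 9.39 with dox and 11.56 without dox in the hairpin 1 line, and 9.27 and 11.70 in the hairpin 2 line. In the scrambled line it was 11.82 and 11.80. The dox arrays of both hairpin lines were thus the low ones, in accord with their labels, and the line difference was 0.12 with dox and -0.14 without. The stem cell genes were equally close: over 24 pluripotency genes the mean level was 11.16 and 11.09 in the hairpin 1 line with and without dox, against 11.08 and 11.13 in the hairpin 2 line. Pou5f1, which encodes the core factor Oct4, lay between 12.55 and 12.62 on the 4 arrays, Sox2 between 11.87 and 12.00, and Nanog between 12.06 and 12.23. Fibroblast genes were bright too, with the matrix protein gene Postn at 11.29 to 11.93 and the collagen gene Col1a1 at 10.02 to 10.65.

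One chemokine gene passed the test between the lines, and more genes had lower than higher values in the hairpin 1 line by a fixed fold. In both dox states 31 genes, or 0.155% of all genes, were at least 1.5-fold lower in the hairpin 1 line, among them 4 chemokines, 3 matrix metalloproteinases, the macrophage genes Lyz2, Adgre1 and C1qb, and also the Y-linked gene Uty and the urea transporter gene Slc14a1. A smaller set of 13 genes, or 0.0652%, was at least 1.5-fold higher in both states and included Col10a1, Lce1h and Hoxc8. The gene that passed the limma test after adjustment over all genes was Ccl11, lower in the hairpin 1 line (0.00502% of genes called lower, 0% called higher).

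Ccl11 encodes eotaxin, a chemokine that attracts eosinophils and is made by fibroblasts and other stromal cells. Its level was 7.14 with dox and 7.35 without dox in the hairpin 1 line, and 9.03 and 9.30 in the hairpin 2 line. In the scrambled line it was 6.96 and 6.59. Both hairpin 2 arrays stood clear of the other 4. The line difference was -1.92 ± 0.09 (SE), a 3.78-fold lower level in the hairpin 1 line, with a limma adjusted p of 0.00604. The second smallest adjusted p was 0.0837. At an unadjusted p under 0.05 there were 1376 genes, 783 higher and 593 lower in the hairpin 1 line, where 997 would be expected by chance.

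That single call depended on the fit. Without the dox term as a block no gene was called, and none was called in an additive limma fit over all 6 arrays. Centring each array on its median gave 51 genes, 13 higher and 38 lower, and quantile normalization gave 6, all lower. A fit with a score of feeder fibroblast genes as a covariate gave 67 genes, 40 higher and 27 lower. In additive fits over 5 arrays, leaving out the hairpin 1 array with dox, the hairpin 2 array with dox or the hairpin 2 array without dox left 0 genes, and leaving out the hairpin 1 array without dox left 4. The results below therefore rest on the values of the arrays, and the adjusted p of each gene is given as a description of how far it was from the threshold.

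**Figure D1:**
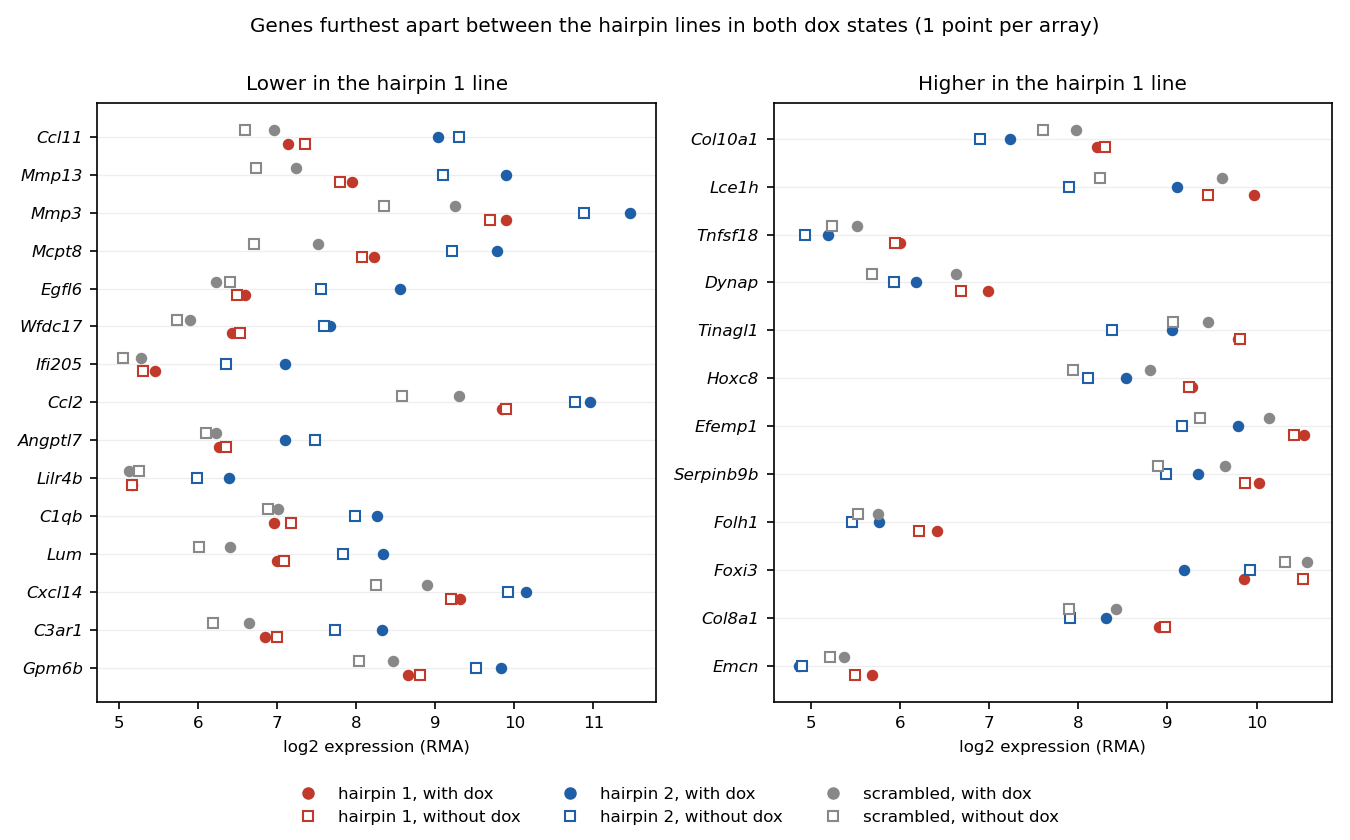
Log2 expression (x axis) of the 15 genes furthest below and the 12 furthest above in the hairpin 1 line, with 1 point per array; filled circles are arrays with dox, open squares without. In the left panel the hairpin 2 arrays stand to the right of all others for each gene, Ccl11 at 9.03 and 9.30 against at most 7.35 elsewhere, and in the right panel the hairpin 1 arrays stand highest except for Foxi3 and Lce1h.

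Ranked by the smaller of both within-state differences, the next genes after Ccl11 were 2 secreted proteases that degrade the extracellular matrix. Mmp13, the collagenase that cleaves fibrillar collagen, was at 7.95 with dox and 7.79 without in the hairpin 1 line, and at 9.90 and 9.10 in the hairpin 2 line. Mmp3, stromelysin 1, was at 9.90 and 9.69 in the hairpin 1 line, and at 11.47 and 10.88 in the hairpin 2 line. The scrambled line was lower still, at 7.24 and 6.74 for Mmp13 and at 9.25 and 8.35 for Mmp3. Each gene ran in the order scrambled, hairpin 1, hairpin 2, with no overlap between lines. The line difference of Mmp13 was -1.63 ± 0.16 (SE; limma adjusted p = 0.103), and that of Mmp3 was -1.38 ± 0.12 (SE; limma adjusted p = 0.0837). Neither passed the test.

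Mmp13 and Mmp3 belong to a run of metalloproteinase genes on chromosome 9 (GRCm38), and only some of their neighbours were apart. In the order of the RefSeq annotation, from Mmp13 through Mmp12, Mmp1b, Mmp3, Mmp1a, Mmp10, Mmp8, Mmp27 and Mmp20 to Mmp7, only Mmp13, Mmp3 and Mmp10 were at least 1.5-fold lower on average in the hairpin 1 line. Mmp10, stromelysin 2, was at 8.26 and 7.94 in the hairpin 1 line and at 8.83 and 8.58 in the hairpin 2 line, a difference of -0.61 ± 0.09 (SE; limma adjusted p = 0.191). The macrophage elastase Mmp12 differed by -0.17, Mmp8 by -0.03 and Mmp1a by 0.00. These 3 lower genes were also the brightest of the run, and the other 7 were at 6.20 or less on all 4 hairpin arrays. Promoters of metalloproteinases are known for sites of the transcription factor AP-1, so the windows of these 3 genes are shown, from 250 bases before to 50 after the annotated start, on the plus strand (RefSeq, GRCm38.p6). Capitals mark the AP-1 motif (TGANTCA) and a TATA box (TATAAA).
Mmp3, chr9:7445572-7445871: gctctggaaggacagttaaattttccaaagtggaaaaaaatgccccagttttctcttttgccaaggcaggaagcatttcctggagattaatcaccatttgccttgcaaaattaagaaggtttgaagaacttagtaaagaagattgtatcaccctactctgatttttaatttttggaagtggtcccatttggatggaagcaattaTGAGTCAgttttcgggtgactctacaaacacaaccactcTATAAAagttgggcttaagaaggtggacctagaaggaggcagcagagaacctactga
Mmp13, chr9:7272264-7272563: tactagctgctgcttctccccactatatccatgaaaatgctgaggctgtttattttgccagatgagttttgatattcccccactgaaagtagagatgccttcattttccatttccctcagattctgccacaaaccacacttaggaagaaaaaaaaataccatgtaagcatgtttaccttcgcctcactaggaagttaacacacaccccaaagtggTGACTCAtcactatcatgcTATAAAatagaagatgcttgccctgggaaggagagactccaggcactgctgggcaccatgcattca
Mmp10, chr9:7502092-7502391: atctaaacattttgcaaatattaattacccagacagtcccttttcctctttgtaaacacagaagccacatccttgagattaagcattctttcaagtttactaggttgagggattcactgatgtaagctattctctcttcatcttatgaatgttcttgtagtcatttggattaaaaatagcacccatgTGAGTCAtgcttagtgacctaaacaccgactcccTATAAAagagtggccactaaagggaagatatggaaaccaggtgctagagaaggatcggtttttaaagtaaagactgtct

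Each of the 3 windows held 1 AP-1 motif and 1 TATA box, searched on both strands. Among all 32817 promoter windows of the table, 7.81% held the AP-1 motif and 13.6% held the TATA box. Of the 31 lower genes, 21 had a window, of which 3 held the AP-1 motif and 6 the TATA box. Of the higher genes 11 had 12 windows, of which 2 held the AP-1 motif and 3 the TATA box. Mmp3 and Mmp13 supplied 2 of the 3 lower windows with AP-1. A match is a description of the letters and not a site in use. Of 20 FGF-ERK targets and immediate early genes, 10 were lower and 3 higher in both states, against 26.1% and 26.3% of all genes. The medians of this list were -0.33 with dox and -0.00 without. Its 3 members furthest apart were the AP-1 subunit genes Fosb, Fos and Jun, mostly with dox. Fosb was at 9.36 and 9.52 in the hairpin 1 line and at 11.05 and 10.03 in the hairpin 2 line. The differences with and without dox were -1.69 and -0.51 for Fosb, -1.12 and -0.33 for Fos, and -1.09 and -0.14 for Jun. In each the hairpin 2 array with dox was the high one, and none passed the test (limma adjusted p = 0.400, 0.466 and 0.625). Whether AP-1 had a part in the difference of the metalloproteinases was not tested.

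Mmp19, a widely made metalloproteinase that lies on chromosome 10, was also 1.5-fold lower in both states, with levels of 7.97 and 8.18 against 9.07 and 8.79. The metalloproteinase inhibitor Timp3, which is held in the matrix, went the other way, at 12.37 and 12.28 in the hairpin 1 line and at 11.90 and 11.40 in the hairpin 2 line. Its difference was 0.67 ± 0.12 (SE; limma adjusted p = 0.253). The membrane-bound Mmp14 was close with dox, at 10.42 and 10.36, and apart without dox, at 10.38 and 9.74. Over the 11 metalloproteinases and inhibitors listed, the median difference was -0.19 with dox and 0.17 without, and none was called.

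Ccl2 and Ccl7, next to Ccl11, had lower values in the hairpin 1 line too, and neither passed the test. Ccl2, the monocyte attractant MCP-1, was at 9.85 and 9.89 in the hairpin 1 line and at 10.96 and 10.77 in the hairpin 2 line, 1.99-fold lower on average (SE 0.10 on the log2 scale; limma adjusted p = 0.119). Ccl7, the related MCP-3, was at 9.22 and 9.32 against 10.35 and 10.00. In the scrambled line Ccl2 was at 9.30 and 8.58 and Ccl7 at 8.72 and 8.12, below both hairpin lines. These 3 genes are adjacent on chromosome 11, followed by Ccl12, Ccl8 and Ccl1. Ccl8 was 1.5-fold lower with dox only, at -1.22 against -0.54 without, while Ccl12 and Ccl1 were dim and differed by -0.01 and -0.06. Cxcl14, a chemokine on chromosome 13 that is made by epithelium and fibroblasts, was at 9.32 and 9.20 against 10.15 and 9.92. Of 16 chemokines and inflammatory ligands measured, 8 were lower and 1 was higher in both states, against 26.1% and 26.3% of all genes. Ccl11 was the only 1 of them called.

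Another such cluster lies on chromosome 14. Mcpt8, a serine protease typical of basophils, was at 8.23 and 8.08 in the hairpin 1 line, 9.78 and 9.21 in the hairpin 2 line, and 7.52 and 6.71 in the scrambled line. It followed the same order of lines as Mmp3, and its difference was -1.34 ± 0.12 (SE; limma adjusted p = 0.0881). Gzme, a granzyme gene in the same cluster, was at 7.06 and 6.88 against 7.69 and 7.97. The neighbour Gzmd was dimmer, at 4.93 and 4.72 against 5.36 and 5.21, and Gzmb, the granzyme of cytotoxic T cells, was at 4.96 and 4.92 against 4.85 and 4.94. Basophil or lymphocyte markers were not part of the lists used.

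The remaining genes of the lower set came from several classes. Egfl6, a secreted matrix protein with EGF-like repeats, was at 6.59 and 6.49 in the hairpin 1 line and at 8.56 and 7.55 in the hairpin 2 line (-1.52 ± 0.20, SE; limma adjusted p = 0.142). Wfdc17, a small secreted protein of myeloid cells, was at 6.43 and 6.53 against 7.67 and 7.59, and was among the most even, at -1.15 ± 0.10 (SE; limma adjusted p = 0.0837). Ifi205, of the interferon-inducible HIN-200 family, was at 5.46 and 5.31 against 7.10 and 6.35. Connective tissue genes in the set were Lum, the collagen-binding proteoglycan lumican (-1.34 with dox, -0.75 without), Angptl7 (-0.84 and -1.13), the tenascin Tnn (-0.93 and -0.68) and Islr (-1.28 and -0.63). Agtr2, the type 2 angiotensin receptor of fetal mesenchyme, was at 6.67 and 6.60 against 7.35 and 7.63. The line differences of all 31 genes ran from -1.92 to -0.64 with a median of -0.96, and their limma adjusted p from 0.00604 to 0.234.

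The scrambled line was nearer to the hairpin 1 line in this set. The median level of the 31 genes was 7.00 with dox and 7.13 without in the hairpin 1 line, 8.27 and 7.97 in the hairpin 2 line, and 6.96 and 6.53 in the scrambled line. In 31 of 31 genes both scrambled arrays lay below both hairpin 2 arrays, and in 26 of 31 they also lay below both hairpin 1 arrays. The same counts over all genes are not given here, so these only describe the set. The genes were chosen for a low level in hairpin 1 against hairpin 2, and that choice alone favours a scrambled level below hairpin 2. Why the scrambled line was nearer to hairpin 1 was not tested. In the additive limma fit over 6 arrays, 91 genes were higher in the hairpin 2 line than in the scrambled line (0.456% of genes) and 2 were lower (0.01%). The same fit called 0% in each direction between the hairpin 1 line and the scrambled line, with 2142 genes at an unadjusted p under 0.05 and a smallest limma adjusted p of 0.21. Both comparisons share the scrambled arrays, and the difference between their counts was not tested. The counts also turned on single arrays: without the hairpin 1 array with dox, 277 genes were called between hairpin 1 and scrambled, and without the scrambled array without dox 42 were. Between hairpin 2 and scrambled 0 were called without the hairpin 2 array with dox, 59 without the hairpin 2 array without dox, 51 without the scrambled array with dox, and 256 whichever hairpin 1 array was left out. In these fits the lone array of a line was taken to vary like the others.

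Among named genes at 1.5-fold in both states, those higher in the hairpin 1 line were fewer and less far apart, although at an unadjusted p under 0.05 the higher genes were the more numerous. Col10a1, the collagen of hypertrophic cartilage, was at 8.21 and 8.30 in the hairpin 1 line, 7.24 and 6.90 in the hairpin 2 line, and 7.97 and 7.60 in the scrambled line. Lce1h, a late cornified envelope gene of skin, was at 9.97 and 9.45, 9.11 and 7.90, and 9.61 and 8.24 in the same order of lines. Tinagl1, a matricellular protein, was at 9.79 and 9.81, 9.05 and 8.38, and 9.46 and 9.06. In Col10a1 and Tinagl1 the scrambled arrays lay between the hairpin lines or level with the upper hairpin 2 array. The line differences were 1.19 ± 0.12 for Col10a1, 1.21 ± 0.16 for Lce1h and 1.09 ± 0.16 for Tinagl1 (SE; limma adjusted p = 0.124, 0.152 and 0.189).

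In Hoxc8, Col8a1 and Efemp1 the hairpin 2 line was nearer to the scrambled line. Hoxc8, a homeobox gene of trunk identity, was at 9.27 and 9.24 in the hairpin 1 line, 8.53 and 8.11 in the hairpin 2 line, and 8.80 and 7.94 in the scrambled line. Col8a1, a short-chain collagen of vessel wall and cornea, was at 8.91 and 8.97, 8.31 and 7.91, and 8.42 and 7.90. Efemp1, the elastic fibre protein fibulin 3, was at 10.53 and 10.42, 9.79 and 9.16, and 10.14 and 9.36. Both hairpin 1 arrays were nearly equal in each, while the hairpin 2 and scrambled lines were higher with dox than without. Folh1, Serpinb9b, Dynap, Tnfsf18, which encodes the ligand of the T-cell receptor GITR, and the endothelial sialomucin gene Emcn had differences of 0.71 to 0.91. Foxi3, a forkhead factor of ectodermal placodes, was the 1 gene whose hairpin arrays overlapped, at 9.86 with dox and 10.52 without in hairpin 1 against 9.19 and 9.92 in hairpin 2. Over the 13 genes the differences ran from 0.64 to 1.21 with a median of 0.83, and the limma adjusted p from 0.124 to 0.201.

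Hoxc8 and Lce1h belong to larger families that can be read whole. Over all genes 26.3% were higher and 26.1% were lower in both states, with medians of 0.01 with dox and -0.01 without. Of 27 Hox genes measured, 11 were higher and 3 lower in both states, with medians of 0.09 with dox and 0.04 without, and none was called. Hoxb2 differed by 0.43 and Hoxd10 by 0.30, but the neighbours of Hoxc8 on chromosome 15 were close, with Hoxc6 at 0.17 and Hoxc9 at 0.13. Of 19 late cornified envelope genes, 8 were higher and 3 lower in both states, with medians of 0.04 and 0.06, and none was called. The family was mostly dim, with a mean level of 5.61 to 5.83 on the hairpin arrays, where the lower quartile of gene means was 6.01. Lce3f, Lce1i and Lce1j differed by 0.48, 0.45 and 0.29, and Crct1, in the same epidermal complex, was at 9.65 and 9.29 against 9.23 and 8.06.

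The 1.5-fold boundary cut through a continuous range. Just inside it were Lbp, at -0.60 with dox and -0.68 without, and Emcn, at 0.82 and 0.60. Just outside were the macrophage gene Ms4a7, at -1.14 and -0.57, and Nudt10, at 0.56 and 0.58. With a difference of 25% in place of 50% the sets held 129 lower and 121 higher genes, and at 2-fold 7 lower and none higher.

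Most differences of 1.5-fold were present in 1 dox state alone. With dox 172 genes were at least 1.5-fold lower and 39 higher in the hairpin 1 line, and without dox 61 were lower and 158 higher. Across the 19938 genes, the difference with dox and the difference without correlated at a Pearson r of 0.18, as a description over genes that are not independent, and 52.5% of genes had the same sign. One gene, Lce1c, was 1.5-fold apart in opposite directions, at 0.69 with dox and -0.59 without, and was dim, at 5.94 or less on the hairpin arrays. Among genes apart only with dox was Pdgfra, the growth factor receptor of mesoderm and fibroblasts, at 7.97 and 8.05 in the hairpin 1 line and at 9.33 and 8.44 in the hairpin 2 line. The hairpin 2 array with dox was the high one in Pdgfra and Fosb, and the hairpin 2 array without dox was the low one in Adamts5, a matrix protease, at 6.37 against 7.09 to 7.54 on the other 3.

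**Figure D2:**
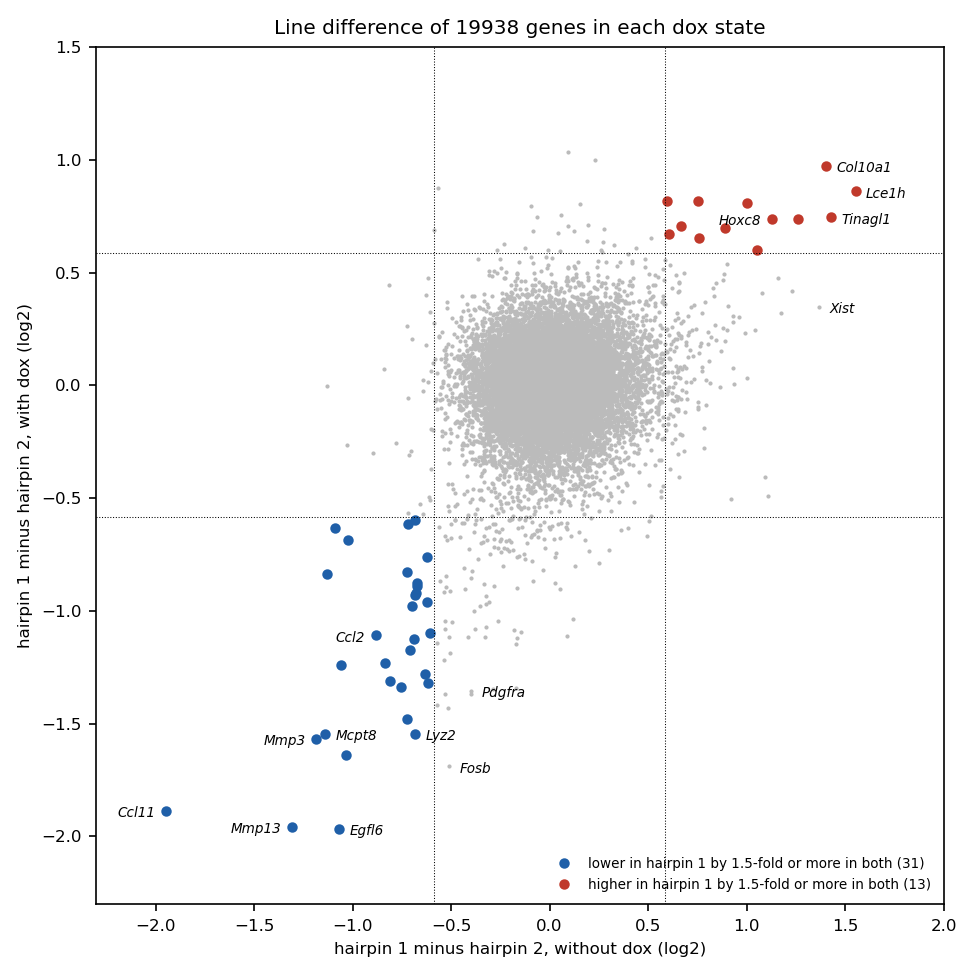
Hairpin 1 minus hairpin 2 (log2) of 19938 genes without dox (x axis) and with dox (y axis); dotted lines mark 1.5-fold, blue points the 31 genes lower and red points the 13 genes higher in both states. The cloud is round with an r of 0.18, and the blue points reach further, to Ccl11 at -1.95 and -1.89, than the red ones.

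The feeder fibroblast list had medians of opposite sign in the dox states. Over the 20 feeder markers measured, the median difference was -0.32 with dox and 0.15 without, beside 0.01 and -0.01 over all genes. Their mean level was 9.85 and 9.84 in the hairpin 1 line, 10.19 and 9.76 in the hairpin 2 line, and 9.52 and 9.03 in the scrambled line. Of the 20 genes 7 were lower and 3 higher in both states, against 26.1% and 26.3% of all genes, and none was called. Furthest apart of the 20 was Lum at -1.04, which is also in the set of 31 lower genes. The collagen VI genes Col6a2 and Col6a1 differed by -0.46 and -0.45, the proteoglycan gene Dcn by -0.40 and Postn by -0.38. Lox, the enzyme that crosslinks collagen, went the other way at 0.37, and Col1a1, Thy1 and Pdgfrb were within 0.02 of 0 on average. Contractile genes had mostly higher values in the hairpin 1 line: Acta2, smooth muscle actin, was at 12.56 and 12.57 against 12.32 and 12.15, and Tagln, transgelin, at 10.92 and 10.82 against 10.73 and 10.39. Of 11 contractile genes 7 were higher and 1 lower in both states, against the same 26.3% and 26.1%, and none was called. In these bulk samples fewer cells of a type and less RNA per cell cannot be told apart. The part of feeder RNA in the set of 31 lower genes was not tested.

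Of 27 macrophage markers, 20 were lower and 0 higher in the hairpin 1 line in both states, against 26.1% and 26.3% of all genes, and none was called. The list was written after values had been seen, because C1qb and Lyz2 stood in the lower set, so its count is a description. All 27 markers were measured, and the median difference was -0.39 with dox and -0.25 without. Their mean level was 6.67 and 6.70 in the hairpin 1 line, 7.20 and 7.02 in the hairpin 2 line, and 6.60 and 6.52 in the scrambled line. Lyz2, lysozyme, was at 8.98 and 9.16 against 10.53 and 9.85, and C1qb, a chain of the complement starter C1q, at 6.96 and 7.18 against 8.27 and 7.99. C3ar1, the receptor of complement C3a, was at 6.85 and 7.00 against 8.33 and 7.73, and Adgre1, which encodes the F4/80 antigen, at 5.32 and 5.56 against 6.28 and 6.18. Other defining genes did not follow: Spi1, the myeloid master factor PU.1, differed by 0.00, Aif1 by 0.04, Itgam by -0.04 and Cd68 by -0.10. Csf1r, the macrophage growth factor receptor, was at 6.57 and 6.68 against 6.95 and 6.63. The part of macrophage RNA in the lower set was not tested.

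**Figure D3:**
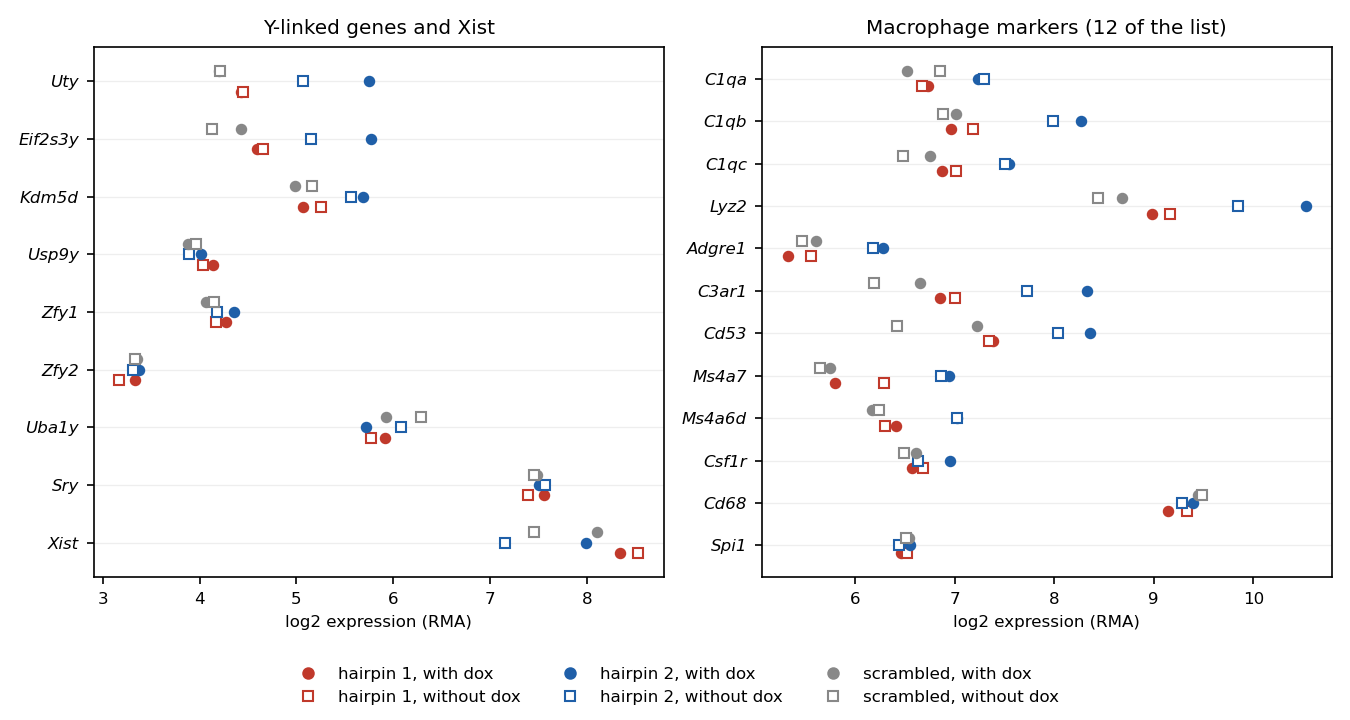
Log2 expression (x axis) of 8 Y-linked genes and Xist (left) and of 12 macrophage markers (right), 1 point per array; filled circles are arrays with dox, open squares without. Uty and Eif2s3y reach 5.75 and 5.77 on the hairpin 2 array with dox and are at 4.65 or less in the other 2 lines, and Lyz2 reaches 10.53, while Spi1 and Cd68 are close on all arrays.

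Of 8 Y-linked genes measured, 5 were lower and 1 was higher in the hairpin 1 line in both states, against 26.1% and 26.3% of all genes, and none was called. The 3 furthest apart were Uty, Eif2s3y and Kdm5d. Uty, the Y-linked relative of a histone demethylase, was at 4.43 and 4.45 in the hairpin 1 line, 5.75 and 5.07 in the hairpin 2 line, and 4.20 and 4.21 in the scrambled line. Eif2s3y, a translation factor subunit, was at 4.59 and 4.65, 5.77 and 5.15, and 4.43 and 4.13. Kdm5d, a histone demethylase, was at 5.07 and 5.25, 5.69 and 5.56, and 4.98 and 5.16. The hairpin 2 line was the high one in all 3 genes, more so with dox, and none of the 3 passed the test (limma adjusted p = 0.234, 0.284 and 0.437). These are low levels: on the hairpin 2 array with dox the 3 genes stood at the 21.4, 21.6 and 20.6 percentiles of all genes, and on the hairpin 1 array without dox at 7.49, 9.25 and 15.2. The other 5 differed by at most 0.14 in size, and the median over all 8 was -0.06 with dox and -0.24 without. On the scrambled array without dox Uty, Eif2s3y and Kdm5d stood at the 5.44, 4.88 and 13.6 percentiles. V6.5 is known as male, yet these 3 genes were dim in all lines, and the reason was not tested. The labels give no sex, and whether the Y-linked signal came from stem cells or from feeder cells was not tested.

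Xist, the RNA that silences an X chromosome in female cells, had higher values in the hairpin 1 line. It was at 8.34 with dox and 8.53 without in the hairpin 1 line, 7.99 and 7.16 in the hairpin 2 line, and 8.11 and 7.45 in the scrambled line. The difference was 0.35 with dox and 1.37 without, and 0.86 ± 0.22 on average (SE; limma adjusted p = 0.484). Both hairpin 1 arrays were above the other 4, while the X-linked genes as a whole were level, with a median of 0.00 over 739 genes. Kdm6a, Eif2s3x and Kdm5c, the X-linked counterparts of Uty, Eif2s3y and Kdm5d that escape silencing, differed by -0.02, 0.10 and 0.14. Ddx3x, another such gene, differed by -0.03, and its Y-linked counterpart Ddx3y was not measured. Over the 20 chromosomes with 471 to 1734 genes each, the median difference ran from -0.013 to 0.004.

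Among stem cell and chromatin genes none was called. Of 24 pluripotency genes 6 were higher and 6 lower in both states, close to the 26.3% and 26.1% of all genes, none was called, and the median was 0.05 with dox and -0.05 without. Dppa3, a maternal factor of naive cells, had the largest difference in size among them at -0.22. Otx2, a factor of primed epiblast, was at 9.91 and 10.40 in the hairpin 1 line and at 10.21 and 10.72 in the hairpin 2 line. Among 16 subunits of PRC1.6, 15 differed by at most 0.17 in size. The exception was Max, the partner of Mga and Myc, at 11.42 and 11.18 against 10.98 and 10.76 (0.43 ± 0.09, SE; limma adjusted p = 0.347), with the scrambled line in between at 11.28 and 10.92. The 34 germ cell and meiosis genes, which include known targets of PRC1.6, were as high with dox in both lines, at a mean of 8.03 in hairpin 1 and 8.01 in hairpin 2. Sycp3, of the synaptonemal complex, was the furthest apart, at 8.05 and 7.51 against 8.33 and 8.02.

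**Figure D4:**
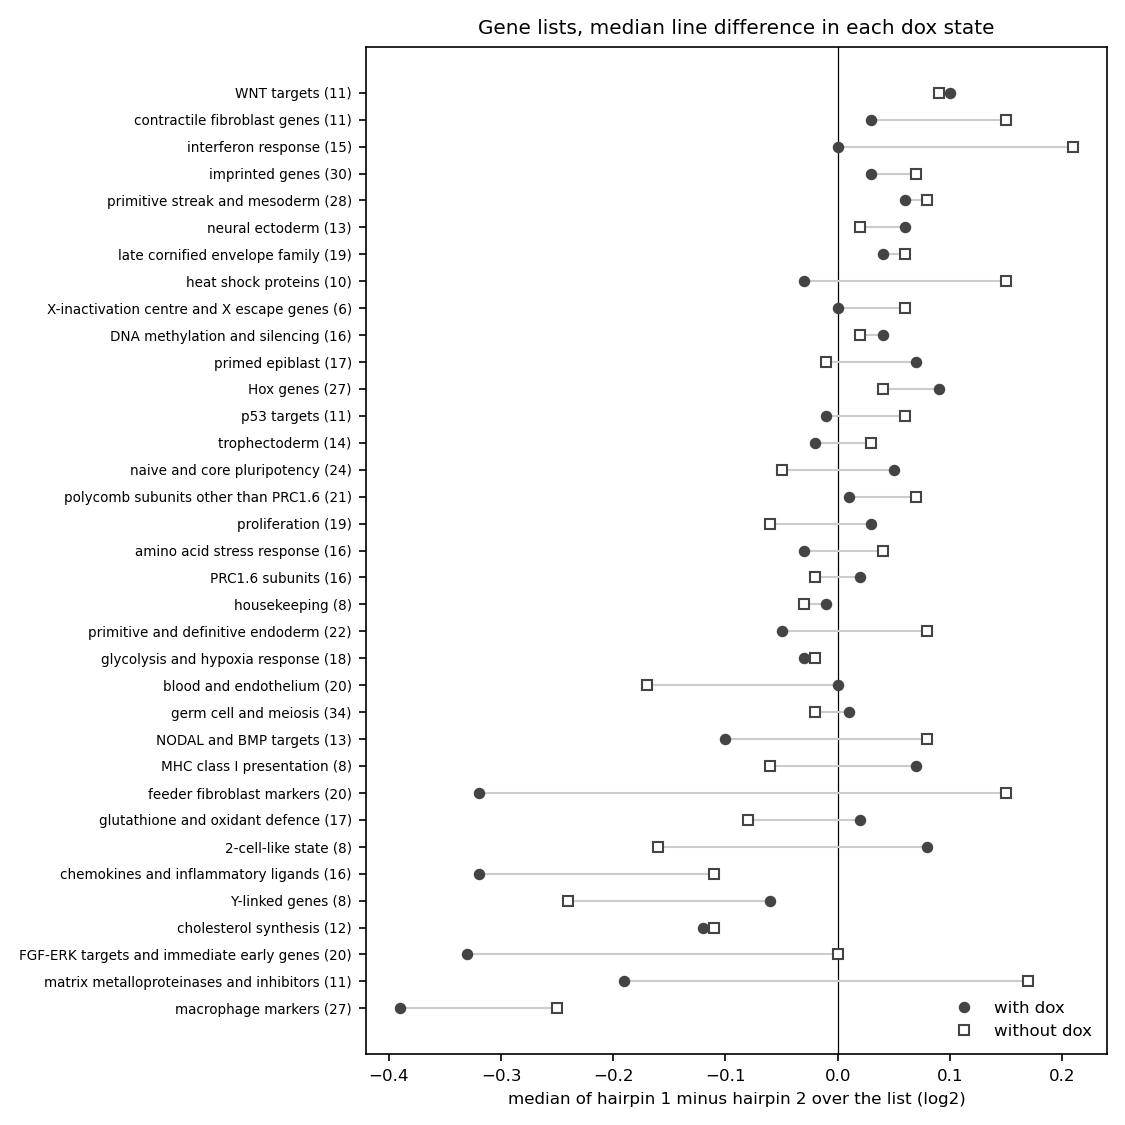
Median of hairpin 1 minus hairpin 2 (log2, x axis) over each gene list with dox (filled circles) and without (open squares), with the number of genes measured in brackets. Macrophage markers, at -0.39 and -0.25, and chemokines, at -0.32 and -0.11, are below 0 in both states, while feeder markers cross from -0.32 to 0.15.

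Of the lineage genes listed none was called, and single genes were apart. Cer1, a secreted inhibitor of Nodal and BMP made by endoderm, was at 6.64 and 7.38 in the hairpin 1 line and at 7.52 and 8.06 in the hairpin 2 line (-0.78 ± 0.10, SE; limma adjusted p = 0.142). Sox17, a factor of endoderm, differed by -0.36, and the 22 endoderm genes had medians of -0.05 with dox and 0.08 without. Eomes, a T-box factor of the primitive streak, differed by 0.41 and the neural progenitor filament gene Nes by 0.53, in lists with medians between 0.02 and 0.08. Nes was at 9.15 and 9.48 in the hairpin 1 line, 8.81 and 8.76 in the hairpin 2 line, and 9.57 and 9.16 in the scrambled line. In the cholesterol synthesis list 8 of 12 genes were lower in both states, against 26.1% of all genes, with medians of -0.12 and -0.11. In the list of WNT targets 7 of 11 were higher and 1 was lower in both states, against 26.3% and 26.1% of all genes, with medians of 0.10 and 0.09. The WNT target furthest apart, Dkk1, went the other way at -0.43. No gene of either list was called, and the shift of neither list was tested.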

How the data were processed

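RNA of 6 cultures was hybridised to 1 array each, and 4 arrays entered the line comparison. Per the submitters' processing notes, the authors used Affymetrix Power Tools and RMA, and the deposited values are log2 intensities per probe set; versions and options are not given in the sources used here. RMA adjusts background and equalises the arrays' distributions, which compresses differences of dim genes. Probe sets were named through the platform annotation: 21789 had 1 symbol, 1621 several and 12146 none, and 21698 of the first were found in RefSeq. One probe set per gene was kept, the brightest over 6 arrays, giving 19938 genes, of which 999 had several. With 1 array per line and dox state, the number of arrays limits precision. The line difference was fitted with limma 3.58.1 in R 4.3.3 as line plus dox state over 4 arrays (1 residual and 5.5 prior degrees of freedom), two-sided, with Benjamini-Hochberg adjustment and a threshold of 0.05. Dox state, not a shared culture, pairs the arrays. The scrambled line was compared in an additive fit over all 6 arrays. A second rule counted genes at least 1.5-fold apart the same way in both dox states. The line fit was tested on simulated data, in which the added differences came back close to their size on average. False calls made up more of the calls than the threshold promises, so its adjusted p-values may be too small. The simulation gave each array independent noise, which the 2 arrays of a line need not have.

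Named genes were Pcgf6, up to 15 genes furthest apart each way in both states (olfactory and vomeronasal receptor and predicted genes skipped), which gave 15 lower and 12 higher, called genes, and up to 6 members of each list, with all members of some lists. Mmp12, Ccl12, Ccl1, Gzmd, Crct1, Adamts5, Nudt10, Agtr2, Tnn, Islr, Lbp, Gzme, Gzmb and the neighbours of the named clusters were added after their values were seen. The genes compared and the lists were chosen with earlier results of these data known. Alternatives covered the block, arrays in the fit, normalization, dim genes, the choice of probe set and the variance prior.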

Additional observations from a re-analysis of the deposited data

Results flagged for a closer look

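The 4 results below had opposite signs in the 2 dox states, each from 1 array against 1, and none of these differences between states was tested. The median line difference of the feeder fibroblast markers was -0.32 with dox and 0.15 without. That of the matrix metalloproteinases and inhibitors was -0.19 with dox and 0.17 without. Pcgf6 itself was 0.12 higher in the hairpin 1 line with dox, where both hairpins were induced, and differed by -0.14 without. Lce1c, a late cornified envelope gene, differed by 0.69 with dox and by -0.59 without, from levels of 5.94 and 4.97 in the hairpin 1 line and 5.25 and 5.56 in the hairpin 2 line. These levels were all below 6.01, the lower quartile of gene means.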

How the results depend on the processing

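With 1 residual degree of freedom, the count of genes called between the hairpin lines changed with the scaling, the terms of the fit and the arrays used. It was 1 in the fit reported and in 4 alternatives (without the dimmest 25% or 50% of genes, mean of all probe sets, robust prior). It was 0 without the dox block, 0 in the additive fit over 6 arrays, 0 over all probe sets, 6 after quantile normalization, 21 with an intensity trend, 51 after median centring and 67 with the feeder score as a covariate, of which 35 were in the sets 1.5-fold apart in both states. Leaving out 1 array gave 0 to 4. Ccl11 was called in 8 of 15 alternatives, with a limma adjusted p of 0.000167 to 0.602. The count at 1.5-fold in both states kept within 1.5 times after either normalization. With a difference of 25% in place of 50% it was 121 higher and 129 lower, and at 2-fold 0 and 7. Of 105 list medians 8 moved by more than the spread between dox states: mesoderm to 0.05 and WNT targets to 0.07 after median centring, cholesterol synthesis to -0.12 after quantile normalization and -0.11 after centring, glycolysis to -0.04 after centring and -0.02 over all probe sets of a gene, and the late cornified envelope family to 0.08 after quantile normalization and 0.03 after centring. The range of chromosome medians was 0.017, and 0.045 without the dimmest 50% of genes. Against the scrambled line, hairpin 2 gave 93 calls, 15 without the dimmest 50% of genes and 0 to 256 with 1 array left out (59 without the hairpin 2 array without dox). Hairpin 1 gave 0, and 0 to 277 with 1 array left out (42 without the scrambled array without dox). These scrambled alternatives were chosen after seeing the data. The cause of these changes was not tested. No named gene that was called changed sign under an alternative. Over the 368 named genes followed there were 254 sign changes without a call.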

Other observations

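Of the 13767 probe sets with no symbol or several symbols, which enter no comparison above, 124 were at least 1.5-fold higher and 35 at least 1.5-fold lower in the hairpin 1 line in both dox states. The balance was the reverse of that among the 19938 genes compared above, of which 13 were higher and 31 lower. In both directions a larger share of these probe sets than of those genes passed the rule. The levels of these probe sets are not given here, and the reason for the reversed balance was not tested.

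Several genes outside the lists were apart mainly without dox, with the hairpin 2 array low. Prss23, a secreted serine protease, was at 10.08 and 10.04 in the hairpin 1 line and at 9.61 with dox and 8.89 without in the hairpin 2 line. Papss2, which makes the sulphate donor for cartilage proteoglycans, was at 8.08 and 8.09 against 7.67 and 7.02, and the growth factor gene Tgfb3 at 8.97 and 9.06 against 8.73 and 8.02. In the scrambled line without dox these 3 genes were at 8.98, 6.92 and 7.65, near the hairpin 2 values. Other genes were apart mainly with dox, with the hairpin 2 array high. Ereg, which encodes the growth factor epiregulin, was at 8.67 and 8.67 against 10.02 and 8.96, and Cxcl2, a neutrophil chemokine, at 5.70 and 5.75 against 7.12 and 6.27. These 5 genes were chosen after their values were seen, and none was called by limma between the hairpin lines.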
